A study of Mus musculus with 6 samples.

Results

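The genes described here encode the protein subunits of the oxidative phosphorylation system, and they were measured in AKP MTO54 mouse tumor organoids (MTOs) with and without Folfiri. They were chosen by a rule on gene symbols, which was proposed with earlier results of these data known. It takes the protein-coding genes of the mouse GENCODE annotation whose symbols begin with mt-Nd, mt-Co, mt-Cytb or mt-Atp, or belong to the Nduf (a, b, c, s and v), Sdh (a to d), Uqcr, Cyc1, Cox4 to Cox8 and Atp5 families. The rule found 99 genes, 13 of the mitochondrial genome and 86 of the nucleus. Of these, 96 had a row among the 24190 genes with counts, and 91 (13 mitochondrial and 78 nuclear) passed edgeR's expression filter, as did 14692 genes in all. Cox7b2, Cox8c and a second entry annotated as Atp5o were not analysed here. The rule also takes in 3 genes that encode no subunit of a complex, namely Cox7a2l, Ndufa4l2 and Atp5s.

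Complexes I to IV of the inner mitochondrial membrane pass electrons from NADH and succinate to oxygen, and complexes I, III and IV pump protons while they do so. Complex V, the ATP synthase, lets the protons flow back and makes ATP. Complex II is built from nuclear subunits only, whereas the other complexes join subunits from both genomes, and the mitochondrial ones are cut from long transcripts that run over many genes. Colonocytes normally draw much of their ATP from this system.

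The study sequenced the RNA of 3 control and 3 Folfiri-treated samples, to see which gene programs chemotherapy changes in these organoids. All 6 samples were parental MTO54 organoids, 1 mouse colorectal tumor organoid line that the labels call AKP, so both groups carry the same genotype. Dissociated organoids were seeded as single cells in basement membrane extract and grown for 2 days, and they then received for 2 more days either fresh complete stem cell medium (control) or this medium with Folfiri, which held SN38 at 100 nM and 5FU at 50 μg/μl (a unit taken from the labels). The times are those of the labels and methods, while a legend of the study gives a longer treatment. 5FU is a pyrimidine analog that disturbs DNA and RNA synthesis, and SN38 is the metabolite of irinotecan that traps topoisomerase I on DNA. Messenger RNA was selected by poly(A), and the study's legends call the samples of each group biological replicates without saying what was separate between them, so the p values below measure the spread between these samples.

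Total counts per sample lay between 22103591 and 30098210. Treated samples differed from controls in much of the transcriptome. With edgeR's quasi-likelihood test at a Benjamini-Hochberg adjusted p under 0.05, 79.1% of all tested genes differed, 40.3% higher and 38.8% lower after Folfiri, and the 2 groups of samples did not overlap for 81.4% of genes. Because of this background, a call by itself says little about a gene here, and direction and size carry most of the description. Across all tested genes the median log2 fold change was 0.02 with TMM scaling, used throughout, and 0.30 with total counts only, and small changes therefore turn on the scaling. Epithelial markers summed to between 5731 and 6638 CPM (counts scaled to library size with TMM) in controls and to between 4647 and 4818 CPM after Folfiri, with 1 of 8 markers higher and 4 lower, Epcam and Cdx2 among the latter. None was higher with no filter, with the replicate number as a block, or in the fits without control 2, control 3, Folfiri 1 or Folfiri 2. With total counts 1 was higher and 3 were lower. The summed markers of immune cells (21.3 to 26.1 CPM against 21.5 to 22.5 CPM, 2 of 9 with enough counts to test), fibroblasts (1.08 to 1.44 against 2.06 to 2.45 CPM, 3 of 8 tested), endothelium (72.2 to 125 against 65.5 to 76.2 CPM, 2 of 3 tested) and striated muscle (10.6 to 12.9 against 7.65 to 8.85 CPM, 3 of 6 tested) stayed far below the epithelial ones. In bulk RNA, fewer cells of a type and less RNA per cell cannot be told apart.

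The 13 mitochondrial-genome subunits and the nuclear ones moved apart. Of the 13 mitochondrial genes, 12 were higher and 1, mt-Co1, was lower after Folfiri, and their median log2 fold change was 1.49. Of the 78 nuclear genes tested, 7 were higher (8.97%, against 40.3% of all genes), 45 were lower (57.7%, against 38.8%) and 26 did not pass the test, with a median of -0.30 that became -0.03 with total counts only. With that scaling 19 nuclear genes were higher and 23 lower, while 49.8% of all genes were higher and 28.9% lower, so the share of nuclear genes that were lower was then near that of all genes and the share that were higher was below it. These shares of all genes, 40.3% higher and 38.8% lower with TMM and 49.8% and 28.9% with total counts, are the measure for each count by complex below. Without Folfiri sample 3 the number of nuclear genes that were higher was 4. Measured from the median of all genes, the mitochondrial median stood at 1.46 and the nuclear median at -0.33 with TMM, and at 1.46 and -0.32 with total counts. Control and treated samples did not overlap in each of the 13 mitochondrial genes and in 48 of the 78 nuclear genes, and the second number is a smaller share than the 81.4% of all tested genes. A rise of at least 2-fold was seen in 8 mitochondrial genes and 1 nuclear gene, where 19.5% of all tested genes rose as much, and a fall of at least 2-fold in 7 nuclear genes, where 16.8% of all genes fell as much. Among the 2467 genes with a control mean of at least 100 CPM, to which all but 2 of the mitochondrial genes belong, a 2-fold rise was rare, with 1.01% of them.

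Within each sample the ratio between the genomes needs no scaling between libraries. Counts on the 13 mitochondrial genes were 2.25%, 2.09% and 2.36% of all counts in control samples 1, 2 and 3 and 3.95%, 4.08% and 4.44% in Folfiri samples 1, 2 and 3. The share rose from 2.23% ± 0.135 to 4.16% ± 0.257 (SD, n = 3 each), so that each treated sample held a larger share than any control. The nuclear genes together took 0.851%, 0.892% and 0.867% of counts in controls and 0.764%, 0.766% and 0.868% after Folfiri, and here the groups overlapped because Folfiri sample 3 reached the level of the controls. Mitochondrial counts were 2.64, 2.35 and 2.73 times the nuclear counts in the controls, and 5.16, 5.33 and 5.11 times after Folfiri. The mean ratio went from 2.57 ± 0.200 to 5.20 ± 0.111 (SD, n = 3 each), a difference of 1.02 on the log2 scale. It was 1.53 when mt-Co1, the most abundant member, was left out, and 2.15 when the median over members of log2 CPM stood in for the sums.

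**Figure D1:**
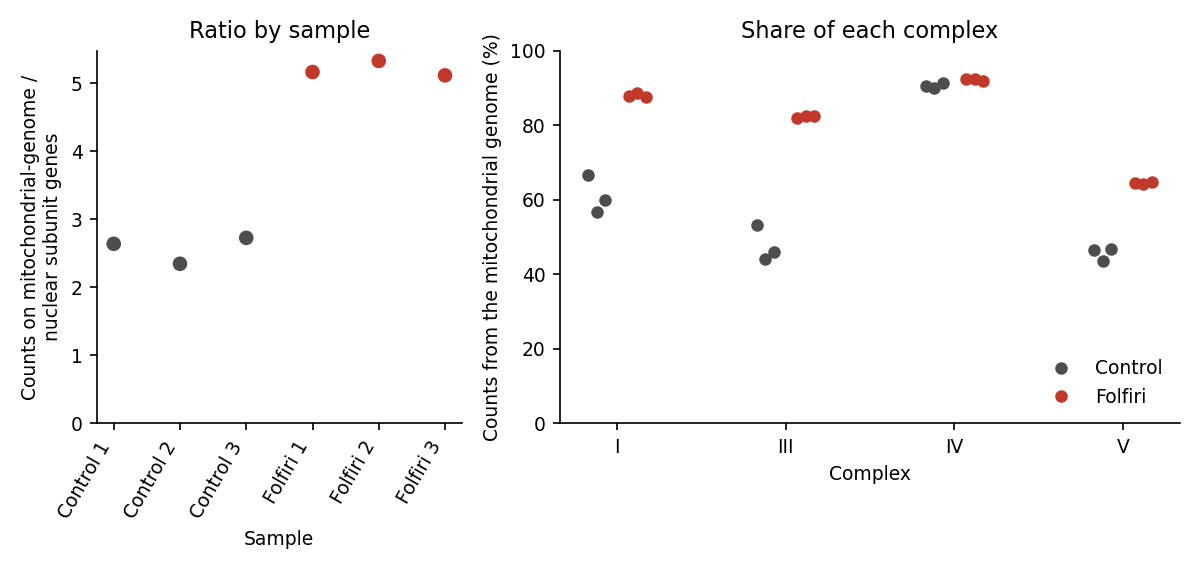
Left, the summed counts of mitochondrial-genome subunit genes divided by those of nuclear subunit genes in each sample; the controls lie between 2.35 and 2.73 and the Folfiri samples between 5.11 and 5.33. Right, the percentage of each complex's counts that came from mitochondrial-genome genes, 1 point per sample, with no overlap between groups in any of the 4 complexes and with complex IV near its upper limit in every sample.

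By complex the shift took the following sizes, given as a description with no test between complexes. In complex I, whose mitochondrial subunits form most of the membrane arm, the 7 mitochondrial genes gave 66.8%, 56.7% and 60.1% of the complex's counts in controls and 88.0%, 88.7% and 87.6% after Folfiri. In complex III, where cytochrome b is the only mitochondrial subunit, the share was 53.2%, 44.0% and 45.9% in controls against 81.9%, 82.4% and 82.5% in treated samples. Complex V, in which mitochondrial genes encode a pair of subunits of the proton channel part, went from 46.6%, 43.6% and 46.9% to 64.4%, 64.3% and 64.7%. Complex IV, whose catalytic core is mitochondrial, went from 90.6%, 90.0% and 91.4% to 92.3%, 92.4% and 91.8%, where a share this close to its upper limit can show little. Its mitochondrial counts rose from 1.55% ± 0.127 to 1.90% ± 0.126 of all counts (SD, n = 3 each), with groups apart, and its nuclear counts went from 0.159% ± 0.00693 to 0.162% ± 0.0181, with groups that overlap.

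The gene with the largest rise was mt-Nd3 (ENSMUSG00000064360), which encodes a small membrane subunit of complex I and lies on chrM:9459-9806 of GRCm38, on the plus strand. Close to it on the same strand lies mt-Nd4l (ENSMUSG00000065947), on chrM:9877-10173, which overlaps mt-Nd4 by 7 bases and whose reads have a second possible origin. Both are shown from the GENCODE transcripts. For mt-Nd3 the first 300 of 348 bases are given with the start codon in capitals, an ATT in place of ATG, and for mt-Nd4l all 297 bases are given with the bases that it shares with mt-Nd4 in capitals.
mt-Nd3: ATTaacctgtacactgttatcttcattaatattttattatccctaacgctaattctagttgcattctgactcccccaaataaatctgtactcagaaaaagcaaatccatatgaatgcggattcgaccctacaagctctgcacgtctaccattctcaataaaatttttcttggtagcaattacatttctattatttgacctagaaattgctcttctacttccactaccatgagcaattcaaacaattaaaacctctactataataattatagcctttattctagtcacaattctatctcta
mt-Nd4l: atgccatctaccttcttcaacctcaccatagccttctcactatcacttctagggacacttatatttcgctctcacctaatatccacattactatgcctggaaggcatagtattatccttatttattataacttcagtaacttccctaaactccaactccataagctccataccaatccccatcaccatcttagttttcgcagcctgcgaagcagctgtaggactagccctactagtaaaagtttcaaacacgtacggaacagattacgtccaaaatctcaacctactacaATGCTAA

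mt-Nd3 had 119, 69.8 and 70.4 CPM in controls 1, 2 and 3 and 603, 635 and 789 CPM in the Folfiri samples. Control 1 was the highest control, yet every treated sample stood far above it. The mean went from 86.4 ± 28.3 to 676 ± 99.4 CPM (SD, n = 3 each), giving a log2 difference of 2.96 (SE 0.20, adjusted p = 3.09e-07). mt-Nd4l went from 93.0 ± 19.9 to 370 ± 19.0 CPM (SD, n = 3 each), giving a log2 difference of 1.99 (SE 0.13, adjusted p = 2.56e-07). A chromosome 1 pseudogene, Gm10222 (chr1:24612407-24612700, minus strand), is 294 bases long and identical to mt-Nd4l over all of them, and its counts were 1.01 to 1.02 times those of mt-Nd4l in every sample. Reads from these bases cannot be placed at 1 of the 2 genes, and the value of mt-Nd4l may hold both. No copy of mt-Nd3 was looked for, so a second origin of its reads was not examined.

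The other mitochondrial subunits of complex I rose as well, each encoding a part of the proton-pumping membrane arm. mt-Nd2 had 434, 301 and 333 CPM in controls and 1491, 1572 and 1689 CPM after Folfiri, which gave a log2 difference of 2.15 (SE 0.13, adjusted p = 1.62e-07). mt-Nd1 had 1178, 797 and 859 CPM against 2769, 2884 and 3382 CPM, which gave a log2 difference of 1.67 (SE 0.15, adjusted p = 2.36e-06). For both genes control 1 was again the highest control, and it remained below the lowest treated sample. mt-Nd4 rose from 818 ± 116 to 2961 ± 82.6 CPM (log2 fold change 1.86) and mt-Nd5 from 799 ± 55.0 to 2238 ± 92.8 CPM (SD, n = 3 each), with a log2 difference of 1.49.

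mt-Nd6 is the only member encoded on the other strand of the mitochondrial genome. Its levels were 246, 224 and 240 CPM in controls and 599, 627 and 662 CPM in treated samples, with groups well apart, which gave a log2 difference of 1.41 (SE 0.08, adjusted p = 8.12e-08). The library kit does not mark the strand, so reads of mt-Nd6 and of transcripts antisense to it cannot be told apart.

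mt-Cytb encodes cytochrome b, which carries both quinone sites of complex III. It had 1056, 810 and 862 CPM in the controls and 3566, 3731 and 4164 CPM after Folfiri. The groups were well separated, by 2.07 on the log2 scale (SE 0.13, adjusted p = 1.36e-07).

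The 3 mitochondrial genes of complex IV encode its catalytic core and gave smaller and opposed changes. mt-Co2, whose product accepts electrons from cytochrome c, had 3166, 3278 and 3639 CPM in controls and 4643, 4613 and 5380 CPM in treated samples, which gave a log2 difference of 0.54 (SE 0.11, adjusted p = 0.00113). mt-Co3 had 2170, 2102 and 2298 CPM against 3044, 3239 and 3633 CPM, which gave a log2 difference of 0.59 (SE 0.10, adjusted p = 0.00032). mt-Co1, the subunit that holds the oxygen-reducing site, had 9810, 11476 and 13306 CPM in controls and 8571, 9024 and 9615 CPM after Folfiri. Its highest treated sample lay just under its lowest control, and the log2 fold change was -0.35 (SE 0.14, adjusted p = 0.0404). That call was lost with total counts only (-0.06, adjusted p = 0.547), with upper quartile scaling (-0.29, adjusted p = 0.0573) and in 5 of the 6 fits that left out 1 sample, the one without control 1 excepted (-0.45). In each scaling tried its log2 fold change was below 0 while the other 12 genes rose. Its share of all mitochondrial subunit counts fell from 42.2%, 48.3% and 49.5% to 24.0%, 24.3% and 23.7%.

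In complex V, mt-Atp6, the channel subunit through which protons pass, had 2803, 2800 and 3128 CPM in controls and 4361, 4383 and 4989 CPM after Folfiri, which gave a log2 difference of 0.65 (SE 0.11, adjusted p = 0.000209). mt-Atp8, a small subunit next to it, went from 386 ± 24.7 to 665 ± 21.7 CPM (SD, n = 3 each), giving a log2 difference of 0.78 (SE 0.08, adjusted p = 5.44e-06). The genes overlap by 43 bases, and a second pseudogene, Gm10925 (chr1:24613974-24614651, minus strand), is identical to mt-Atp6 over its 678 bases and had 1.08 times the counts of mt-Atp6 and mt-Atp8 together in every sample, so mt-Atp6 carries the same uncertainty as mt-Nd4l. On the mitochondrial genome mt-Co3 and mt-Nd3 lie between mt-Atp6 and mt-Nd4l. Whether the stretch of chromosome 1 between the pseudogenes copies them was not examined, so their reads may also have a second origin.

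Per kb of exon, which corrects for gene length only, the measured levels of the mitochondrial genes became more alike. Poly(A) capture of each mRNA and reads shared between genes also enter such a comparison, and they were not measured. The overlapping genes mt-Atp8 and mt-Atp6, for example, had 1894 and 4274 CPM per kb in controls. In controls the mean levels ran from 7463 CPM per kb for mt-Co1 through 4914 for mt-Co2, 4274 for mt-Atp6 and 2794 for mt-Co3 down to 343 for mt-Nd2, 313 for mt-Nd4l and 248 for mt-Nd3. After Folfiri they ran from 7133 for mt-Co2, 6722 for mt-Atp6 and 5870 for mt-Co1 down to 1227 for mt-Nd5 and 1213 for mt-Nd6, with mt-Nd3 at 1942 CPM per kb. The 3 genes lowest in controls had log2 differences of 1.99 to 2.96 and the 4 highest of -0.35 to 0.65, where the control level enters both quantities. The ratio of the highest to the lowest gene was 18.6, 37.0 and 42.6 in controls 1, 2 and 3 and 5.88, 5.59 and 6.41 in the Folfiri samples. Control 1 stood closest to the treated samples in this ratio and in the shares of complexes I and III, and it stayed apart from them in each. Over the whole transcriptome control 1 also differed most from the other controls (chi-square per degree of freedom 25.3 and 23.9, against 4.03 between controls 2 and 3). Folfiri sample 3 did so among the treated samples (13.3 and 12.8, against 3.76). Counts on complex I genes were 16.7%, 12.3% and 11.9% of mitochondrial subunit counts in controls and 30.4%, 30.9% and 29.8% after Folfiri, while those on complex IV genes fell from 65.1%, 71.0% and 71.7% to 45.6%, 45.4% and 45.9%.

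**Figure D2:**
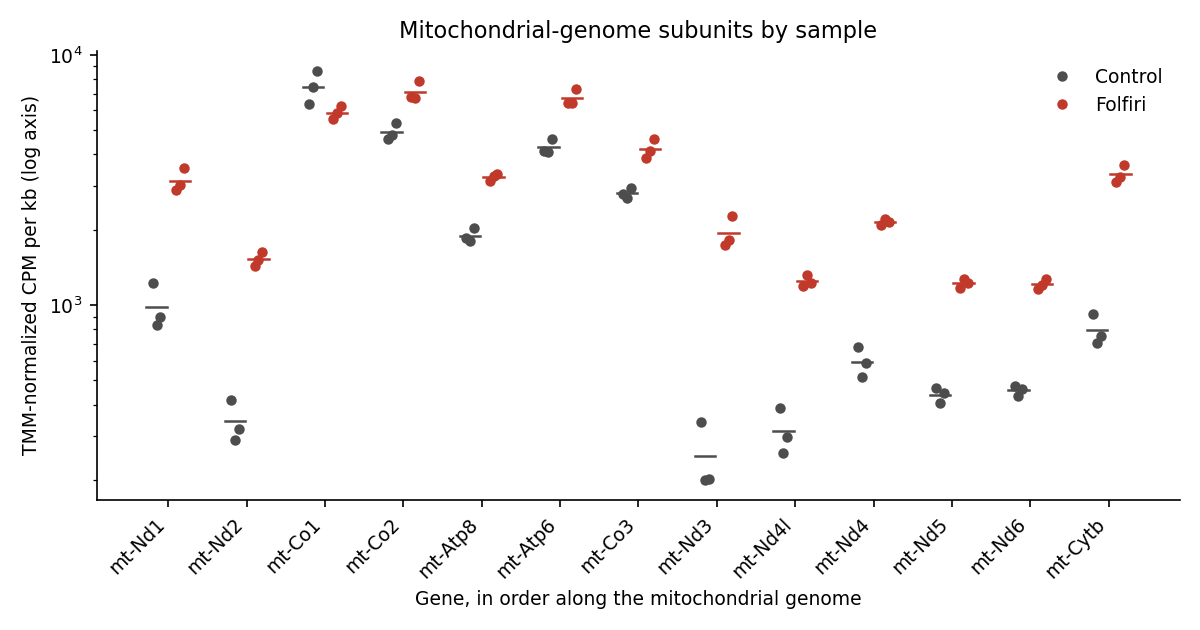
Levels of the 13 mitochondrial-genome subunit genes in TMM-normalized CPM per kb of exon on a log axis, in their order along the genome; points are samples and bars are group means of 3 samples. The Folfiri samples lie above the controls for every gene except mt-Co1, which lost its call under other scalings, and the widest gap is at mt-Nd3.

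Among the nuclear genes of complex I, 5 of 35 were higher and 20 lower (median log2 fold change -0.33, and -0.05 with total counts only, when 11 were higher and 11 lower), against 40.3% higher and 38.8% lower over all genes. Without Folfiri sample 3 the number that were higher was 2. All 7 nuclear core subunits, which carry the NADH site and the iron-sulfur clusters, were lower, with a median of -0.63 (5 of 7 lower and a median of -0.35 with total counts), while of the 28 supernumerary subunits 5 were higher and 13 lower, with a median of -0.18. The balance of the supernumerary subunits turned with total counts, when 11 were higher and 6 lower with a median of 0.10. Without Folfiri sample 3, 2 were higher and 16 lower with a median of -0.28, and the median was -0.12 without Folfiri sample 2. With TMM the supernumerary shares were 17.9% higher and 46.4% lower, against 40.3% and 38.8% of all genes. Ndufs3, a core subunit of the peripheral arm, had 75.6, 92.3 and 86.9 CPM in controls and 28.0, 28.7 and 30.9 CPM after Folfiri, which gave a log2 difference of -1.54 (SE 0.09, adjusted p = 1.2e-07). Ndufs1, the largest core subunit, had 70.9, 74.5 and 70.9 CPM against 32.7, 34.4 and 31.0 CPM, which gave a log2 difference of -1.14 (SE 0.08, adjusted p = 2.4e-07). In both genes each treated sample lay well below every control. They share 88 (Ndufs3) and 498 (Ndufs1) exonic bases with genes on the other strand, as 30 of the nuclear members share bases with other genes, and such reads cannot be told apart without strand. Other core genes fell by less, with log2 fold changes of -0.81 for Ndufs8, -0.61 for Ndufv1, -0.39 for Ndufv2 and -0.32 for Ndufs7, and the last of these lost its call with total counts (-0.04) and without Folfiri sample 2, as Ndufv2 did with total counts (-0.11).

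The largest fall of all members was in Ndufv3, a supernumerary subunit next to the NADH site, with 104, 122 and 119 CPM in controls and 37.6, 33.6 and 39.6 CPM after Folfiri (log2 fold change -1.64, SE 0.09, adjusted p = 7.13e-08). Ndufa6, which belongs to the peripheral arm, fell by 1.04 on the log2 scale. The largest rise of a nuclear member was in Ndufb2, a small membrane-arm subunit, with 6.55, 6.44 and 6.74 CPM in controls and 18.2, 19.8 and 18.8 CPM in treated samples (log2 fold change 1.53, SE 0.10, adjusted p = 2.25e-07). Its low level and its overlap matter here, since 447 of its exonic bases also belong to other genes, Braf among them. Ndufa5, a peripheral-arm subunit with no such overlap, had 10.0, 10.8 and 9.72 CPM against 18.4, 17.9 and 23.0 CPM, which gave a log2 difference of 0.95 (SE 0.12, adjusted p = 2.89e-05). Ndufs6, with a log2 fold change of 0.34, Ndufa12, with the same value, and Ndufb3, at 0.23, completed the 5 that rose, and each of these 3 lost its call without Folfiri sample 3, as Ndufb3 did without control 3.

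Complex II oxidizes succinate and links the citric acid cycle to the chain. Sdha, its flavoprotein, had 295, 347 and 338 CPM in controls and 157, 170 and 171 CPM after Folfiri, which gave a log2 difference of -0.98 (SE 0.08, adjusted p = 1.34e-06), with no overlap between groups. Sdhc, a membrane anchor, fell by 0.66 and Sdhb, the iron-sulfur subunit, by 0.45 on the log2 scale, though the call of Sdhb was lost with total counts (-0.17). Sdhd, the other anchor, did not pass the test, with 136, 170 and 169 CPM in controls, 159, 165 and 183 CPM after Folfiri and a log2 difference of 0.10 (SE 0.10, adjusted p = 0.372). The median of the 4 genes was -0.56, and -0.28 with total counts, when Sdhd was called higher.

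In complex III, 1 of 9 nuclear genes was higher and 5 were lower, with a median log2 fold change of -0.24 that was 0.04 with total counts, when 2 were lower. The shares are 11.1% higher and 55.6% lower, against 40.3% and 38.8% of all genes, and with total counts 28.9% of all genes were lower. Uqcrh, the hinge protein, had the largest fall, from 81.8, 99.1 and 99.3 CPM to 55.0, 56.8 and 66.4 CPM (log2 fold change -0.65, SE 0.10, adjusted p = 0.000132). The redox subunits Uqcrfs1 (Rieske iron-sulfur protein) and Cyc1 (cytochrome c1) fell by 0.41 and 0.30, and the scaffold protein Uqcrc1 by 0.42, on the log2 scale, where the calls of Uqcrfs1 and Cyc1 were lost with total counts. Uqcr10, a small subunit, was higher at 50.3, 57.7 and 59.5 CPM in controls and 74.6, 73.7 and 92.9 CPM in treated samples, which gave a log2 difference of 0.53 (SE 0.11, adjusted p = 0.000825).

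In complex IV, 8 of 12 tested nuclear genes were lower and 1 was higher, with a median of -0.28 that was 0.00 with total counts, when 2 were lower and 3 higher. The shares with TMM are 66.7% lower and 8.33% higher, against 38.8% and 40.3% of all genes. The number that were lower was 4 without Folfiri sample 1 and also without Folfiri sample 2, and 2 were higher in the first of these fits. Cox5b was the one that rose, a zinc-binding subunit on the matrix side, with 62.9, 64.1 and 58.8 CPM in controls and 83.7, 89.4 and 101 CPM after Folfiri (log2 fold change 0.56, SE 0.08, adjusted p = 0.00011). Its partner Cox5a had a log2 fold change of -0.24 (adjusted p = 0.0218), and its groups overlapped. Several subunits exist as forms for different tissues or conditions. The forms made in most tissues gave log2 fold changes of -0.44 for Cox4i1, -0.55 for Cox6a1, -0.27 for Cox6b1, -0.36 for Cox7a2, -0.29 for Cox7b and -0.35 for Cox8a, all of them called with TMM, and of these only Cox6a1 kept its call with total counts. The calls of Cox5a, Cox6b1, Cox7b and Cox8a were also lost in 2 to 4 of the fits that left out 1 sample. Cox7a1, the form of heart and skeletal muscle, was low at 3.35, 5.20 and 4.68 CPM and fell to 1.71, 1.48 and 1.55 CPM (log2 fold change -1.47, SE 0.20, adjusted p = 4.56e-05), while the summed striated muscle markers fell as well, as given above, and their part in the fall was not tested. Cox4i2, Cox6a2, Cox6b2, Cox8b and the Ndufa4 paralog Ndufa4l2 had between 0 and 8 counts per sample, too few to test. Ndufa4, which was first assigned to complex I and is counted here with complex IV, did not pass the test with TMM (log2 fold change 0.18, adjusted p = 0.0746), and it was called higher with total counts and with upper quartile scaling.

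The nuclear subunits of complex V are described by part, with no test between the parts. All 5 subunits of the catalytic F1 head were lower, with a median of -0.63 (3 of 5 lower and a median of -0.35 with total counts), while among 11 subunits of the membrane part and the stalks 3 were lower and none higher, with a median of -0.09 that was 0.19 with total counts, when 3 were higher and 2 lower. That share of 27.3% lower is under the 38.8% of all genes. Each of the 6 fits that left out 1 sample kept the median of the membrane part and stalks below 0, from -0.18 without Folfiri sample 3 to -0.034 without Folfiri sample 2. Atp5a1, the alpha subunit, had 862, 971 and 957 CPM in controls and 525, 556 and 578 CPM after Folfiri, which gave a log2 difference of -0.75 (SE 0.08, adjusted p = 1.23e-05). Atp5c1, the shaft of the rotor, fell by 0.71, its partner Atp5d by 0.63, and the catalytic beta subunit Atp5b by 0.36 on the log2 scale, the last of them not with total counts (-0.09). The separation of groups was complete in these 4 genes, and the fifth, Atp5e, was close to the threshold (log2 fold change -0.23, adjusted p = 0.048) and lost its call in 4 of the 6 fits that left out 1 sample.

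The 3 genes Atp5g1, Atp5g2 and Atp5g3 encode the same mature c subunit of the rotor ring, and they did not move as one. Atp5g2 had 206, 256 and 237 CPM in controls and 102, 99.5 and 121 CPM after Folfiri, which gave a log2 difference of -1.11 (SE 0.10, adjusted p = 2.67e-06). Atp5g3 had 196, 208 and 203 CPM against 152, 153 and 169 CPM, which gave a log2 difference of -0.35 (SE 0.07, adjusted p = 0.000882) and was no longer called with total counts (-0.08, adjusted p = 0.282). Atp5g1 went from 66.9 ± 5.68 to 64.6 ± 9.02 CPM (SD, n = 3 each) with groups that overlap, giving a log2 difference of -0.05 (SE 0.11, adjusted p = 0.684). Of the genes the rule takes in that encode no subunit, Cox7a2l, an assembly factor of respiratory supercomplexes, had 162, 218 and 218 CPM in controls and 92.0, 94.4 and 102 CPM after Folfiri (log2 fold change -1.05, SE 0.11, adjusted p = 7.96e-06), and Atp5s was at -0.01 (adjusted p = 0.917).

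**Figure D3:**
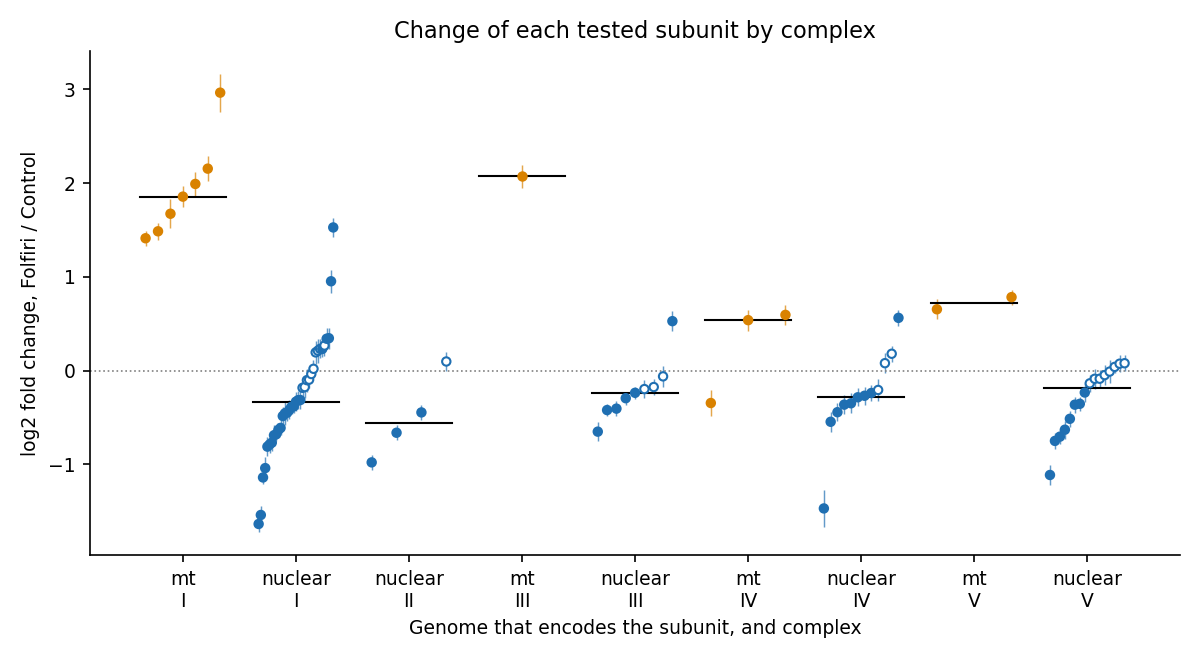
Log2 fold change (Folfiri over control, edgeR with TMM) of each tested subunit, grouped by complex and by the genome that encodes it, with vertical bars for 1 SE; filled points passed an adjusted p of 0.05, open points did not, and horizontal lines are medians. Mitochondrial medians lie above 0 in complexes I, III, IV and V and nuclear medians below 0, where with scaling by total counts only the nuclear medians of complexes III, IV and V are at or above 0.

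Promoters of the members whose changes stood out are shown from RefSeq on GRCm38.p6, each from 250 bases before to 50 bases after the annotated start, 5′ to 3′ along the gene. They are the 2 nuclear complex I genes with the largest fall and the one with the largest rise, and Atp5g2 as the most changed member with a match to the motif of the transcription factor NRF1. Capitals mark matches to GCGCATGC (NRF1), CCGGAAG (ETS factors such as the GABP complex) or AAGATGGC (YY1) on either strand.
Ndufv3, chr17:31519865-31520164, plus strand: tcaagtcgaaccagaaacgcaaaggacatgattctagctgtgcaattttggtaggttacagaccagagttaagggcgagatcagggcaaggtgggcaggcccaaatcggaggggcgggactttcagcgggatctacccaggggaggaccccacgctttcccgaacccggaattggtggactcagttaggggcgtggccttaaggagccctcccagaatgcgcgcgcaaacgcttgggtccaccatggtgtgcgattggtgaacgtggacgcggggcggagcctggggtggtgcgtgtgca
Ndufs3, chr2:90904672-90904971, minus strand: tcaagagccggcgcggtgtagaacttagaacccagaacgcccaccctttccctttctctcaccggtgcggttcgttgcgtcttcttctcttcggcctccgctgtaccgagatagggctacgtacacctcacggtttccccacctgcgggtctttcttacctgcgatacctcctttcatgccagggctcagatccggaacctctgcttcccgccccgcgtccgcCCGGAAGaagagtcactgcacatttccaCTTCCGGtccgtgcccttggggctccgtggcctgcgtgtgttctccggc
Ndufb2, chr6:39592315-39592614, plus strand: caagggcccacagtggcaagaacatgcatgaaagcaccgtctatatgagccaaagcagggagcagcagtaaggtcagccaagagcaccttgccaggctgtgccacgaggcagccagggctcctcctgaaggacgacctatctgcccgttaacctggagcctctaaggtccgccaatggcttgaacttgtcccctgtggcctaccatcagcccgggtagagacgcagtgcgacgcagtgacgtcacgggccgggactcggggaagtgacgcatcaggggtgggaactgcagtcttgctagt
Atp5g2, chr15:102670998-102671297, minus strand: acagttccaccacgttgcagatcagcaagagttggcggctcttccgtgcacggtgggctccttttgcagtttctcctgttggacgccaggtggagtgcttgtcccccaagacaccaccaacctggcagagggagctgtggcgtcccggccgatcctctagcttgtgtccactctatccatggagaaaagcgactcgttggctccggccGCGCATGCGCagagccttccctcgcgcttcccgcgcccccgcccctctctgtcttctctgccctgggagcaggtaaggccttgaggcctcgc

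Ndufs3 held 2 ETS matches, and Atp5g2 held 2 NRF1 matches that overlap, since the letters are nearly the same on both strands. Ndufv3 and Ndufb2 held none of the 3 motifs in these windows, one having fallen most and the other having risen most. A promoter was found for 66 nuclear members. The NRF1 letters were in 15.2% of them, compared with 5.78% of the 10473 tested genes with a promoter and 3.05% of all 27025 genes with one. The ETS letters were in 24.2% of the members against 19.8% and 9.93%, and the YY1 letters in 13.6% against 5.15% and 3.19%. Among the members that fell and had a promoter, 5 of 38 held NRF1, 9 of 38 ETS and 6 of 38 YY1, and among the 18 that were not called the numbers were 5, 7 and 2. Of the 7 that rose, Ndufs6 alone held a match, to YY1. A match of letters is a description of the window and not a bound site.

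Assembly factors help to build the complexes without being part of them. Of 47 assembly factors tested, 28 were higher (59.6%, against 40.3% of all genes) and 8 lower, with a median log2 fold change of 0.42 (35 higher and 7 lower with total counts). By complex, 8 of 16 were higher and 4 lower for complex I, 12 of 18 higher and 4 lower for complex IV, and 3 of 4, 3 of 6 and 2 of 3 higher with 0 lower for complexes II, III and V. These numbers are small, and 40.3% of all genes were higher and 38.8% lower. Ndufaf4, needed for an early step of complex I assembly, went from 8.95 ± 2.05 to 71.1 ± 3.97 CPM (SD, n = 3 each), giving a log2 difference of 2.98 (SE 0.14, adjusted p = 2.32e-08). Each treated sample lay far above the controls. Among complex IV factors, Coa7 rose by 1.60, Cox10, which makes heme O, by 1.51, and the copper chaperone Sco1 by 1.44 on the log2 scale. Timmdc1, a complex I factor, went the other way, from 16.7 ± 0.902 to 6.54 ± 0.292 CPM (SD, n = 3 each).

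All 5 tested genes for transcription of the mitochondrial genome and stability of its mRNAs were higher, where 40.3% of all genes were, with a median of 0.86. The packaging and transcription factor Tfam went from 36.2 ± 4.85 to 63.0 ± 1.27 CPM and the RNA polymerase Polrmt from 15.9 ± 0.786 to 28.9 ± 1.92 CPM (SD, n = 3 each), log2 fold changes of 0.80 and 0.86. The initiation factor Tfb2m and Lrpprc, which binds and stabilizes mitochondrial mRNAs, rose by 0.90 and 0.84 on the log2 scale, and the elongation factor Tefm went from 3.78 ± 1.08 to 8.79 ± 0.987 CPM (SD, n = 3 each). Of 8 regulators of nuclear respiratory genes, 2 were higher and 3 lower (25% and 37.5%, against 40.3% and 38.8% of all genes). The numbers were 4 and 3 with total counts, 3 and 3 with upper quartile scaling, and 1 and 3 with DESeq2's Wald test. Pprc1, a coactivator of the PGC-1 family, had 44.8, 27.2 and 23.8 CPM in controls and 187, 203 and 197 CPM after Folfiri (log2 fold change 2.61, SE 0.19, adjusted p = 4.76e-07), and Ppargc1a stayed under 1 CPM (control 0.226 ± 0.0405, Folfiri 0.501 ± 0.0993, SD, n = 3 each), called higher by edgeR and not tested under a filter at 1 CPM. Nrf1, Yy1 and Ppargc1b were lower, with log2 fold changes of -0.58, -0.86 and -1.05, where Ppargc1b went from 1.37 ± 0.217 to 0.669 ± 0.238 CPM (SD, n = 3 each) and was also not tested under that filter. Gabpa did not pass the test (-0.10, adjusted p = 0.217).

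Of 14 citric acid cycle genes, which supply the chain with NADH and succinate, 10 were lower (71.4%, against 38.8% of all genes) and 1 higher, with a median of -0.49 (7 lower and 3 higher with total counts). Fh1, fumarase, which uses the product of complex II, had 72.7, 75.7 and 79.9 CPM in controls and 15.2, 15.2 and 15.9 CPM after Folfiri, which gave a log2 difference of -2.30 (SE 0.08, adjusted p = 4.48e-09). The isocitrate dehydrogenase Idh2 fell by 1.51 on the log2 scale, while Idh3a was the one that rose (0.31). For exchange of ATP and phosphate, 5 of 7 genes were lower and 1 higher (71.4% and 14.3%, against 38.8% and 40.3% of all genes), and 3 and 2 with total counts (28.9% and 49.8% of all genes). None was higher with DESeq2 size factors, with the Wald test, with no filter, with the replicate block or in 5 of the 6 fits that left out 1 sample. The ADP/ATP carrier Slc25a5 fell from 800 ± 34.5 to 388 ± 17.2 CPM (SD, n = 3 each), where Slc25a4, another such carrier, had a log2 fold change of 0.19 (adjusted p = 0.0495). Of the 18 genes of electron carriers and entry into ubiquinone, 6 were higher and 6 lower (33.3% each, against 40.3% and 38.8% of all genes), with a median of 0.03. With total counts 8 were higher and 5 lower, and the median was 0.31. Fits that left out 1 sample gave medians from -0.061 (without Folfiri sample 3) to 0.054 (without control 1). Cycs, cytochrome c, which carries electrons between complexes III and IV, had 100, 89.9 and 86.3 CPM in controls and 155, 166 and 185 CPM after Folfiri (log2 fold change 0.87, SE 0.09, adjusted p = 5.02e-06).

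**Figure D4:**
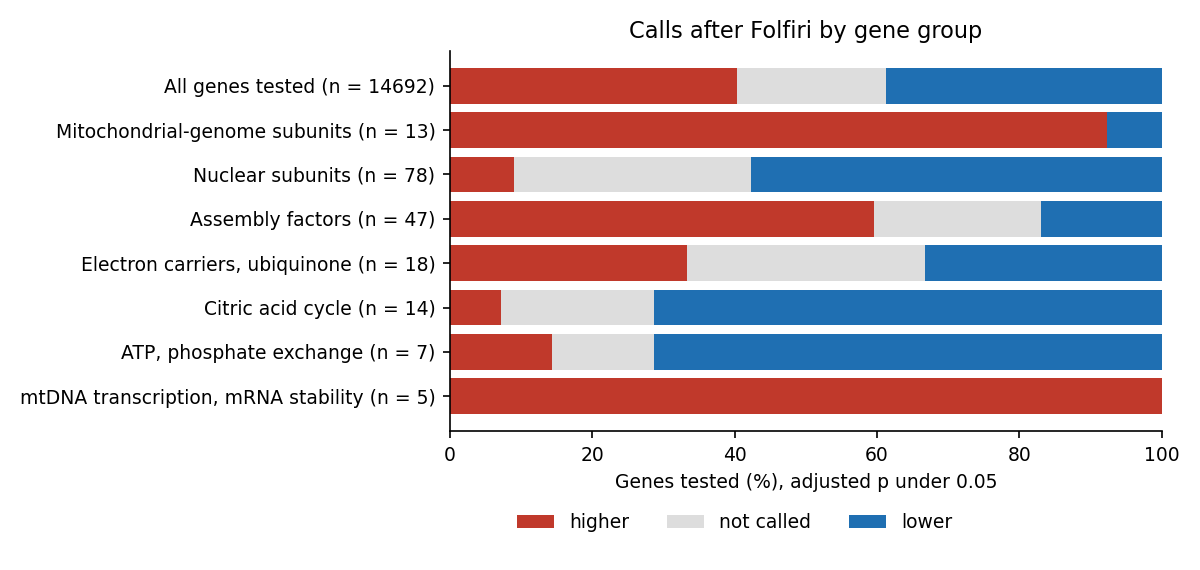
Percentage of tested genes called higher, lower or not called (edgeR with TMM, adjusted p under 0.05) for all genes and for each group of respiratory genes, with the number tested in parentheses. The share called lower is 57.7% for nuclear subunits against 38.8% for all genes, and the share called higher is 59.6% for assembly factors against 40.3%; with total counts only, 19 of 78 nuclear subunits were higher and 23 lower, where 49.8% and 28.9% of all genes were.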

How the data were processed

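Libraries were made from poly(A)-selected RNA with a kit that does not mark strand. The authors aligned reads with STAR 2.5.2 to the mouse genome with GENCODE annotation, made gene-level counts with Rsubread and deposited these raw counts, not normalized. How reads with several positions were treated is not given in the sources used here. Symbols, positions and exonic lengths came from GENCODE vM21 on GRCm38 for 24124 of 24190 genes. Samples were grouped by their labels. All genes were fitted together with edgeR 4.0.16 in R 4.3.3 (default expression filter, TMM, quasi-likelihood test without covariates, Benjamini-Hochberg adjustment over 14692 genes, threshold 0.05). Log2 fold changes, also called log2 differences here, used edgeR's default prior count, and a prior count of 2 served for log2 CPM only. The procedure was also run on simulated data, where 100 genes had a log2 change of 1 in size and 100 a change of 2, among 14449. Most genes were unchanged there, unlike in these data, so that run cannot judge the scaling. DESeq2 1.42.0 served as an alternative. Levels are TMM-normalized CPM.

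The members, gene lists and motifs were chosen with earlier results of these data known. Genes named were all mitochondrial members, complex II, fixed lists of core subunits and tissue forms, and up to 3 genes per direction and complex with the largest change among called genes with separate groups. The further genes of complexes I and V and of the other pathway lists were named after their values were seen. Intervals and errors cover counting and the spread between samples only. The result for a gene that this rule covers is not reported here.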

Additional observations from a re-analysis of the deposited data

How the results depend on the processing

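DESeq2 size factors, TMM from nuclear genes only, and TMM without mitochondrial genes and their chromosome 1 copies, the last chosen after seeing the data, gave the same call for each of the 91 members. With total counts only, 56 of the 91 members had the same result as in the main fit, where a result is higher, lower or not called. A call was lost by 23 members and gained by 12, and none changed direction while called. There were 0 mitochondrial members lower, 19 nuclear members higher and 23 lower (background 49.8% and 28.9%, so that 63.3% and not 51.0% of all calls were higher). The medians were 1.76 and -0.027, and Cox5a at 0.040, Cox6b1 at 0.010, Atp5s at 0.26 and Atp5g1 at 0.23 were above 0. With upper quartile scaling 0 mitochondrial members were lower, and Atp5s (0.042) and Atp5g1 (0.0078) were above 0. With no filter 88 members had the same result as in the main fit, called or not, with a filter at 1 CPM 90, and with DESeq2's Wald test 90. Of the nuclear members that share no exon base with another gene, counted after seeing the data, 5 of 51 were higher and 31 lower. These are 9.80% and 60.8%, against 40.3% and 38.8% of all genes, and they were counted with TMM only.

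Leaving out 1 sample at a time gave between 11021 and 12312 calls over all genes, 12 mitochondrial members higher in each fit, 0 to 1 lower, 4 to 9 nuclear members higher (4 without Folfiri sample 3) and 38 to 52 lower. Between 80 and 87 of the 91 members had the same result as in the main fit, called or not. Medians stayed between 1.42 and 1.53 and between -0.39 and -0.24, the difference in the mitochondrial share between 1.78 and 2.03 points and the log2 ratio between 0.96 and 1.06. Atp5s lay between -0.087 and 0.052 and Atp5g1 between -0.17 and 0.023. The log2 ratio was 1.53 without mt-Co1 and 2.15 as a median over members.

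Samples with the same number did not deviate together (correlations of 0.03, -0.12 and 0.04). No pairing by number was seen, and 3 samples per group cannot exclude one. With the replicate number as a block, 11499 genes were called against 11623 without it. Of the members, 89 had the same result, called or not, and Ndufs5 and Cox7c gained a call. A planned addition of the mitochondrial ribosomal RNA genes was not run, and those genes were not analysed here.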

Other observations

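The nuclear members are short genes, with a median span of 7370 bases against 23201.5 bases for the tested protein-coding genes. Spearman's rho between span and log2 fold change was -0.19 over the 78 nuclear members and -0.11 over 12864 protein-coding genes, as a description across genes that share the same 6 libraries. Split by span into 3 groups of 26, the nuclear members had median log2 fold changes of -0.31 (shortest), -0.16 (middle) and -0.47 (longest).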
